A study of Rattus norvegicus with 9 samples.

Results

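Left ventricular messenger RNA of spontaneously hypertensive rats (SHR) given oxymatrine was compared with that of untreated SHR, gene by gene. All genes whose FPKM averaged 1 or more over the 9 libraries of the study were taken, which was 12451 of the 19294 genes with values. FPKM is the number of fragments assigned to a gene scaled to the length of the gene and to the total of the library. SHR are inbred rats that develop high blood pressure by descent, so the treated and the untreated group, with 3 libraries each, share one genetic background. Oxymatrine is a quinolizidine alkaloid from the roots of Sophora plants. The sources used here give neither its dose, route and duration, nor the age and sex of the animals, nor the time of day at which tissue was taken. The study also sequenced 3 libraries of untreated Wistar Kyoto rats (WKY), the normotensive strain, which are used here for the spread in the fit and for levels set beside those of SHR. The libraries held 587526 to 606633 FPKM in sum, with 12231 to 12514 genes at an FPKM of at least 1, and their read depth is unknown. Across genes, log2(FPKM + 1) correlated at 0.988 to 0.991 within the 2 SHR groups and at 0.986 to 0.990 between them. Whether each library of a group stands for its own animal is not stated, and p-values here speak for the spread among these libraries, which may be technical.

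The circadian clock of a heart cell is a loop of transcription. The activators BMAL1 (gene Arntl) and CLOCK or NPAS2 bind E-boxes and switch on the Period and Cryptochrome genes, the REV-ERB receptors Nr1d1 and Nr1d2, and the output factors Dbp, Tef and Hlf. Period and Cryptochrome proteins then block the activators, the REV-ERB receptors repress Arntl and Npas2 through ROR response elements (ROREs), and the output factors act through D-boxes, so that the messenger RNA of Arntl and that of its targets peak at opposite times of the day. Interferon response genes are switched on by STAT and IRF factors after a cell senses interferon, and include antiviral effectors and brakes on the response itself.

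Of the 12451 genes, 30 differed between treated and untreated SHR at an adjusted p of 0.05 (0.241%; limma with Benjamini-Hochberg adjustment over all tested genes). With oxymatrine 19 genes rose (0.153%) and 11 fell (0.0883%). The genes with the greatest rises were Dbp, Ciart and Per3, and Arntl fell the most. Members of the lists of clock activators, repressors and outputs, which were chosen with earlier results of these data known, made up 10 of the 30. The rest included interferon response genes and the detoxifying enzymes Ephx1 and Gstt1 among those that rose, and Rcan1, Cdkn1a, Enah and Ypel2 among those that fell. For all 30 genes the 3 treated and the 3 untreated values did not overlap, as was the case for 17.2% of all tested genes. The changes were mostly modest: 7 of the 30 reached 1 on the log2 scale. Over all 12451 genes, 1512 were below an unadjusted p of 0.05 in limma, which is the background for the list counts below. Estimates were above 0 for 8025 genes and below 0 for 4426. The median over all genes was 0.039, or −0.006 with median-of-ratios scaling of the libraries.

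Promoter windows were read for the called genes, since 10 of them are on the clock lists and the clock loop works through known DNA elements. The windows are RefSeq sequences of rat build GRCr8, from 250 bases before to 50 bases after the start of a transcript, and 21 of the 30 genes had one. The letters searched on both strands were CACGTG for the E-box, TTANGTAA for the D-box and TAGGTCA for the RORE, none of which overlap each other. The 7 windows below hold a match for a clock gene or, in Ppp1r3c, for another called gene with an E-box, and the capitals mark the match. Arntl (Bmal1 in RefSeq) is at chr1:176766078-176766377, plus strand, Bhlhe40 at chr4:143174200-143174499, plus strand, Bhlhe41 at chr4:180569306-180569605, minus strand, and Ciart at chr2:186112197-186112496, minus strand. Per2 is at chr9:99496944-99497243, minus strand, Ppp1r3c at chr1:243878478-243878777, minus strand, and Tef at chr7:115206577-115206876, plus strand.
Ciart: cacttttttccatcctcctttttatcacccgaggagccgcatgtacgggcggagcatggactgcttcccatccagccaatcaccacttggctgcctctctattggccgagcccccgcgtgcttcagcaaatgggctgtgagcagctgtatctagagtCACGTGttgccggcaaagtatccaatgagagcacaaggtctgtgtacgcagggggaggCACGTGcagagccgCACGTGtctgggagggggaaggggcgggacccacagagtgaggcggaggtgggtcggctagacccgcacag
Tef: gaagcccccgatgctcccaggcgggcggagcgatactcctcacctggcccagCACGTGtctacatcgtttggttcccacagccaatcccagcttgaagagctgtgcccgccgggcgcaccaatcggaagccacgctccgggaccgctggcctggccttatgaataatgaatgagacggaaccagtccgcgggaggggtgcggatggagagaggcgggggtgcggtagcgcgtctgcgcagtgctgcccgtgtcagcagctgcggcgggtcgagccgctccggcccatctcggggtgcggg
Bhlhe40: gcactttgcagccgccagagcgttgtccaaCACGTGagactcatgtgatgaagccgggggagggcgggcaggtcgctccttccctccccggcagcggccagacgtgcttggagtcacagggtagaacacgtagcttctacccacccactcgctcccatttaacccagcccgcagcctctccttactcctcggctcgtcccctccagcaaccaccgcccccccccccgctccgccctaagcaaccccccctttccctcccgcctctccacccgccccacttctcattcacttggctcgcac
Bhlhe41: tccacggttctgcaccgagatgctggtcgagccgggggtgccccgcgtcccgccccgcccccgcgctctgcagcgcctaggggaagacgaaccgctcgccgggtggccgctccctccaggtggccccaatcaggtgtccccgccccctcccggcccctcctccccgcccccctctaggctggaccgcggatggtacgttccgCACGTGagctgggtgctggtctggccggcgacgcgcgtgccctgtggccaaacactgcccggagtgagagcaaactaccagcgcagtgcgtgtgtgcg
Ppp1r3c: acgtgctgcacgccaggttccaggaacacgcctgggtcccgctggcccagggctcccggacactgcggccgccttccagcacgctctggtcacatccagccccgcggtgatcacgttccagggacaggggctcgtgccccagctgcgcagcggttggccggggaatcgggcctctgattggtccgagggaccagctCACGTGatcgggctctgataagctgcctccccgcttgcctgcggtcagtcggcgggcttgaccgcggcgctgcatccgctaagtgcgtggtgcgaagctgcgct
Per2: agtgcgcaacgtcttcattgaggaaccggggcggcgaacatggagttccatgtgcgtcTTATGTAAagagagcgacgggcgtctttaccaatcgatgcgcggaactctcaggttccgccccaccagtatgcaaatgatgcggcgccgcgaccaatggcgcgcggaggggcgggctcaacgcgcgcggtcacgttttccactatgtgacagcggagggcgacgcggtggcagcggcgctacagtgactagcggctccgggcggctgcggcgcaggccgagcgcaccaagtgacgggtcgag
Arntl: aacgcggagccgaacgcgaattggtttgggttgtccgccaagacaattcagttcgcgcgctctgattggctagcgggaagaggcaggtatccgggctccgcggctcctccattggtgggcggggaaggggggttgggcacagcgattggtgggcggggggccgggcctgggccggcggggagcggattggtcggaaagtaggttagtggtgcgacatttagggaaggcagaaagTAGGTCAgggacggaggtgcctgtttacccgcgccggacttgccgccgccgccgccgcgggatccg

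Ciart, which encodes a repressor of BMAL1 and CLOCK, held the E-box letters at 3 places, 93, 35 and 21 bases before its start. Tef, Bhlhe40, Bhlhe41 and Ppp1r3c held them once each, 198, 220, 48 and 54 bases before theirs. Of the windows of genes that rose 4 of 14 held an E-box, and of those of genes that fell 1 of 9, where 9.21% of the 11056 windows of tested genes and 6.42% of all 33469 windows did. The D-box letters stood in the window of Per2, 192 bases before the start, and in 1.29% of the windows of tested genes. The RORE letters stood 16 bases before the start of Arntl and, on the minus strand, 222 bases before that of Uck2, and in 1.89% of the windows of tested genes. The windows of Dbp, Per3 and Npas2 held none of the 3 elements. A match describes these letters in this window and is not a measurement of binding.

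**Figure D1:**
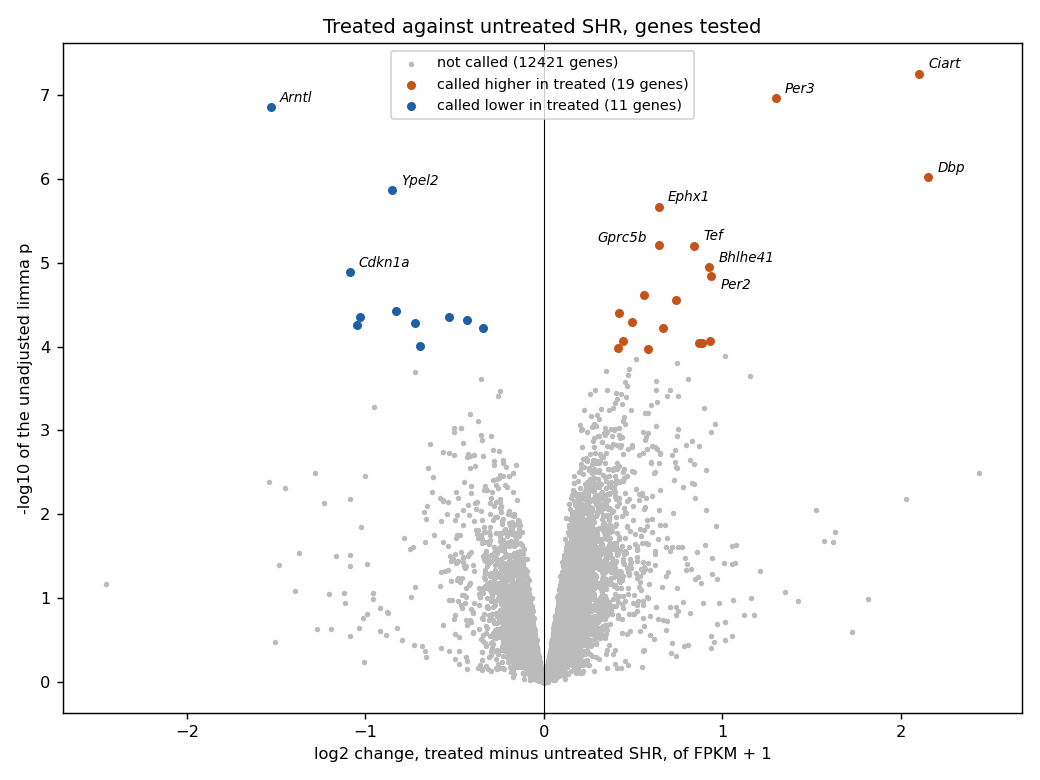
Log2 change of each of the 12451 tested genes with oxymatrine (x axis, treated minus untreated SHR on the log2(FPKM + 1) scale) against −log10 of its unadjusted p in limma (y axis), with the 30 called genes in colour. The called genes with the greatest changes, Dbp at 2.15, Ciart at 2.10, Per3 at 1.3 and Arntl at −1.53, stand apart from the rest.

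Of the 7 tested clock activators and nuclear receptors, a list that holds the repressing REV-ERB receptors too, 2 fell and none rose. The 2 that fell were the activators Arntl and Npas2. Treated values were all below untreated ones for 3 members (3.99% of all genes) and all above for 3 (13.2%). With median-of-ratios scaling of the libraries both counts were again 3, where 8.57% and 7.63% of all genes were so separated. Arntl (NCBI Gene ID 29657), which encodes BMAL1, had 18.31, 18.27 and 19.43 FPKM in the 3 untreated libraries and 5.83, 6.73 and 4.99 in the treated ones. The groups lay far apart, and Arntl fell by 1.53 on the log2(FPKM + 1) scale (95% interval −1.78 to −1.28, adjusted p = 0.000588 in limma), 3.19-fold in mean FPKM. Npas2 (316351), a partner of BMAL1 that can take the place of CLOCK, had 5.08, 6.69 and 5.23 FPKM untreated and 2.56, 3.30 and 2.40 treated. It fell by 0.83 (adjusted p = 0.0324 in limma). Clock itself, at 8.04 ± 0.471 FPKM untreated and 6.80 ± 0.676 treated (mean ± SD, n = 3), was lower in each treated library than in any untreated one, but its log2 change of −0.21 did not pass (adjusted p = 0.404 in limma). Of the ROR receptors, which activate Arntl, Rora had a log2 change of 0.12 and was not called, while Rorb and the BMAL1 paralogue Arntl2 were below the level tested.

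The REV-ERB receptors, which repress Arntl, had higher values in every treated library but did not pass the test. Nr1d2 had 21.3, 19.12 and 21.96 FPKM untreated and 37.46, 35.64 and 38.17 treated, with a log2 change of 0.81 (95% interval 0.49 to 1.13, adjusted p = 0.0762 in limma). In 3 of 18 alternative settings Nr1d2 was called, with adjusted p-values in limma between 0.00591 and 0.231 over all of them. Nr1d1 had 39.16, 29.07 and 36.09 FPKM untreated and 66.33, 53.71 and 69.33 treated, with a log2 change of 0.84 (adjusted p = 0.231 in limma). Both receptors also varied among the 3 WKY libraries, from 10.92 to 18.16 FPKM for Nr1d2 and from 12.51 to 28.75 for Nr1d1, and that spread is part of the fit.

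Among 13 clock repressors 5 rose and none fell, with a median log2 change of 0.32 (0.039 over all tested genes). Ciart (365871) had 0.92, 0.97 and 1.29 FPKM untreated and 8.60, 6.44 and 8.60 treated, which was 7.43-fold higher in mean FPKM. With means of 0.537 FPKM in WKY and 1.06 in untreated SHR, it passed the filter on mean FPKM through its treated values. The fold of Ciart therefore rests on a low denominator. Its log2 change was 2.10 (95% interval 1.79 to 2.41, adjusted p = 0.000588 in limma). Per3 (78962), a member of the Period family, rose from 3.16, 3.13 and 3.74 FPKM to 9.30, 9.38 and 10.33, by 1.3 on the log2 scale (95% interval 1.09 to 1.51, adjusted p = 0.000588 in limma). In both genes the lowest treated library had more than the highest untreated one by a wide margin.

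Per2 (63840), a core Period repressor, had 3.71, 3.17 and 3.22 FPKM untreated and 6.97, 7.99 and 7.12 treated. It rose by 0.94 (adjusted p = 0.0163 in limma), and 11 of 18 alternatives called it. Bhlhe41 (117095) and Bhlhe40 (79431), which encode DEC2 and DEC1, compete with BMAL1 for E-boxes. Bhlhe41 rose from 8.16, 6.41 and 7.81 FPKM to 17.07, 12.90 and 15.39, by 0.93 (adjusted p = 0.0157 in limma). Bhlhe40 rose from 19.61, 19.56 and 18.32 FPKM to 34.22, 31.51 and 32.42, by 0.74 (adjusted p = 0.0264 in limma), and 10 of 18 alternatives called it. In all 3 genes every treated value was above every untreated one.

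The other Period and Cryptochrome genes did not pass. Per1, which also responds acutely to hormones and stress, had 14.00, 19.52 and 4.78 FPKM untreated and 13.10, 20.72 and 9.71 treated, so it varied more within than between groups. Cry2 had 14.1 ± 0.618 FPKM untreated and 18.3 ± 0.783 treated (adjusted p = 0.0877 in limma), and Cry1 had 5.26 ± 0.220 and 4.08 ± 0.485 (adjusted p = 0.338 in limma). Their log2 changes had opposite signs, 0.35 for Cry2 and −0.31 for Cry1, and neither gene's groups overlapped. The casein kinases Csnk1d and Csnk1e, which phosphorylate Period proteins, had log2 changes of 0.05 and 0.06.

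Of 14 tested clock output genes 3 rose and none fell. Dbp (24309), a transcription factor of the PAR bZIP family that acts on D-boxes, had 17.05, 15.31 and 16.72 FPKM untreated and 80.97, 60.84 and 89.45 treated. The treated libraries were well above the untreated ones, 4.71-fold in mean FPKM, with a log2 change of 2.15 (95% interval 1.72 to 2.59, adjusted p = 0.00298 in limma). Tef (29362), of the same family, rose from 24.07, 20.96 and 24.21 FPKM to 42.94, 40 and 43.41, by 0.84 (adjusted p = 0.0098 in limma). Hlf, the other factor of the family, was below the level tested at 0.357 ± 0.0702 FPKM untreated and 0.847 ± 0.1 treated. Tspan4 (293627), a tetraspanin listed among the outputs, rose from 14.9 ± 0.759 to 22.4 ± 0.172 FPKM, by 0.56 (adjusted p = 0.0255 in limma).

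Nfil3, a repressor that competes with the PAR bZIP factors for D-boxes, had 9.98, 11.99 and 11.67 FPKM untreated and 7.01, 8.07 and 7.71 treated. Its log2 change of −0.50 did not pass (adjusted p = 0.132 in limma). Usp2, a clock-controlled ubiquitin protease, had 25.73, 29.32 and 21.45 FPKM untreated and 44.04, 34.49 and 41.59 treated (log2 change 0.63, adjusted p = 0.101 in limma). Klf15, a regulator of cardiac metabolism, and Kcnip2, a potassium channel subunit whose heart level follows Klf15, had log2 changes of 0.37 and 0.10 and were not called. Nampt, Por, Tfrc and Klf9 had changes between −0.08 and 0.10. Of the 14 output genes 8 were below an unadjusted p of 0.05 in limma, as were 1512 of all 12451. Treated values were all above untreated ones for 6 of the 14, Klf15 among them (13.2% of all genes). They were all below for 2 (3.99% of all genes). The size of the change thus differed among the genes on the output list.

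**Figure D2:**
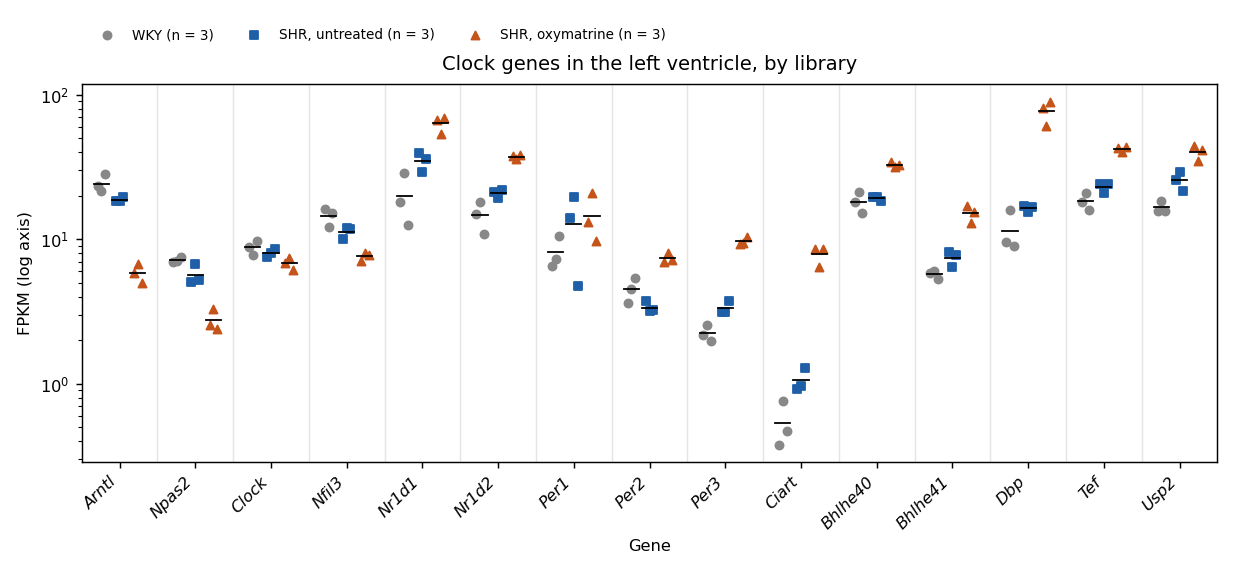
FPKM of clock genes in each library (log axis), with WKY in grey, untreated SHR in blue and oxymatrine-treated SHR in orange, 3 libraries a group and a line at the mean. Arntl and Npas2 are lower in every treated than in every untreated SHR library, while Dbp, Ciart, Per3, Per2, Tef, Bhlhe40 and Bhlhe41 are higher.

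Beside these, the WKY libraries had 23.13, 21.39 and 28.16 FPKM of Arntl and 9.52, 15.82 and 9.01 of Dbp. For Ciart they had 0.38, 0.76 and 0.47 FPKM, and for Per3 2.16, 2.56 and 1.99. For these 4 genes the mean of untreated SHR thus lay between those of WKY and of treated SHR. Per2 went the other way, with WKY above untreated SHR at 4.50 ± 0.870 FPKM (log2 difference −0.32, adjusted p = 0.0561 in limma). Tspan4, at 15.5 ± 1.59 FPKM in WKY, hardly differed from untreated SHR (−0.05, adjusted p = 0.634 in limma). The comparison of SHR with WKY shares the untreated SHR libraries with that of treatment, so the differences are not independent. The log2 difference of untreated SHR from WKY was −0.35 for Arntl, 0.52 for Dbp, 0.43 for Ciart and 0.43 for Per3. All 4 were smaller in size than the difference of treated from untreated SHR, and the time of collection, which bears on the level of these genes, is not known.

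A second set of genes that rose were interferon response genes. Of 35 tested members of that list 4 rose, none fell and 31 did not pass. Their median log2 change was 0.41, where that of all tested genes was 0.039. Of the 35 estimates 34 were above 0, as were 8025 of all 12451. Treated values were all above untreated ones for 26 of the 35, where 13.2% of all genes were separated in that direction, and for none were they all below (3.99% of all genes). With median-of-ratios scaling of the libraries 23 were separated upwards, where 7.63% of all genes were, and none of the 4 kept its call with that scaling or with quantile normalization.

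The 4 called members span effectors and a brake. Mx2 (286918), which encodes an interferon-induced GTPase, had 33.99, 30.99 and 41.19 FPKM untreated and 64.63, 56.02 and 79.01 treated. It rose by 0.89 (adjusted p = 0.0414 in limma; 0.0825 and 0.0555 with median-of-ratios scaling and quantile normalization, and 0.0284 to 0.166 over all alternatives). Oasl (304545), of the oligoadenylate synthetase-like family, had 2.16, 1.97 and 3.20 FPKM untreated and 5.12, 5.35 and 6.01 treated, a rise of 0.93 (adjusted p = 0.0414 in limma). Usp18 (312688), which removes ISG15 from proteins and damps interferon signalling, rose from 13.57, 12.21 and 15.19 FPKM to 22.75, 20.25 and 23.86, by 0.67 (adjusted p = 0.0324 in limma). Ifit2 (294091), an RNA-binding antiviral protein, rose from 18.09, 18.29 and 20.10 FPKM to 24.03, 25.80 and 26.77, by 0.42 (adjusted p = 0.0324 in limma). None of the 4 overlapped between groups, and each was called in 4 to 6 of the alternatives.

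Rnf213 (303735), a large interferon-inducible ubiquitin ligase outside the list, rose from 4.38 ± 0.323 to 6.31 ± 0.139 FPKM, by 0.44 (adjusted p = 0.0414 in limma). The class I histocompatibility gene RT1-T24-3 (414788) rose from 84.20, 78.56 and 88.33 FPKM to 113.85, 111.01 and 131.03, by 0.50 (adjusted p = 0.0324 in limma). RT1 genes are near-identical copies between which estimated reads can be divided, so the level of one copy is uncertain. Of 24 tested antigen presentation genes none was called by limma, 14 were below an unadjusted p of 0.05, and the median log2 change was 0.23. Treated values were all above untreated ones for 14 of the 24 and below for none, where 13.2% and 3.99% of all genes were, and with median-of-ratios scaling above for 12 (7.63% of all genes). Among them were the class II genes RT1-Ba, at 13.4 FPKM untreated against 24.9 treated, and RT1-Da, at 35.6 against 63.9, with adjusted p-values in limma of 0.142 and 0.147.

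In WKY the 4 called interferon genes had higher means than in either SHR group, with some overlap for Oasl. Mx2 had 106 ± 10.9 FPKM in WKY, 35.4 ± 5.24 in untreated and 66.6 ± 11.6 in treated SHR. Usp18 had 34.9 ± 3.72, 13.7 ± 1.49 and 22.3 ± 1.85 FPKM in that order, and Ifit2 39.0 ± 0.892, 18.8 ± 1.11 and 25.5 ± 1.39. Treated SHR thus lay between untreated SHR and WKY for these 3 genes. Leukocyte markers were measured beside them. The summed FPKM of 14 macrophage and monocyte markers ran from 447 to 517 in untreated and from 334 to 625 in treated libraries, so the treated range enclosed the untreated one, and that of the 4 lymphocyte markers of 14 that reached the level tested from 19.3 to 26.3 and from 18.2 to 31.4. None of the macrophage markers was separated between groups, and Nkg7 and Prf1, of cytotoxic lymphocytes, were separated upwards but not called. Their part in the result was not tested, and in whole tissue a change in the number of cells of a type and one in RNA per cell cannot be told apart.

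Of 22 tested genes of xenobiotic metabolism 2 rose, Ephx1 and Gstt1, and none fell. Ephx1 (25315), the microsomal epoxide hydrolase, had 21.21, 19.25 and 22.33 FPKM untreated and 33.62, 31.98 and 34.17 treated. The groups were 1.59-fold apart in mean FPKM, and Ephx1 rose by 0.65 (95% interval 0.50 to 0.79, adjusted p = 0.00446 in limma) and was called under all 18 alternatives. Gstt1 (25260), a glutathione transferase, had 3.25, 2.89 and 3.31 FPKM untreated and 5.55, 5.42 and 4.72 treated, a rise of 0.59 (adjusted p = 0.0449 in limma) that 2 of 17 alternatives called. Over the 22 genes the median log2 change was 0.10, and 4 were below an unadjusted p of 0.05 in limma, as were 1512 of all 12451. Ephx1 was also the 1 called gene of 25 of arachidonic acid metabolism. Cyp2e1, a cytochrome P450 of small foreign molecules, had 2.47, 2.98 and 3.17 FPKM untreated and 7.33, 9 and 6.64 treated. It was clearly separated but not called (log2 change 1.16, adjusted p = 0.0734 in limma, 0.00659 to 0.216 over the alternatives, 2 of which called it). In WKY it had 10.70, 12.32 and 6.30 FPKM. Nr1i3, the xenobiotic receptor CAR, had 1.21 to 1.53 FPKM untreated and 1.96 to 2.13 treated, also not called. Of 24 antioxidant and Nrf2 target genes limma called none, with 4 below an unadjusted p of 0.05, and Hmox1, heme oxygenase, had a log2 change of −0.24.

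The remaining 3 genes that rose were on none of the lists. Rgs16 (360857), which shortens G protein signals, had 3.54, 3.58 and 3.49 FPKM untreated and 7.48, 7.92 and 6.48 treated, a rise of 0.87 (adjusted p = 0.0414 in limma). Gprc5b (293546), an orphan receptor of the G protein-coupled family, rose from 5.04, 5.90 and 5.25 FPKM to 8.69, 8.86 and 9.44, by 0.65 (adjusted p = 0.0098 in limma), and 16 of 18 alternatives called it. The locus LOC100911766 rose by 0.41 (adjusted p = 0.0446 in limma), and has no entry in the table of gene names used. Rgs16 and Gprc5b had WKY levels nearer to the treated than to the untreated group, 6.92 ± 1.57 and 10.9 ± 0.649 FPKM.

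Among the genes that fell, 2 are linked to stress of the heart muscle. Rcan1 (266766), a feedback inhibitor of calcineurin that calcineurin itself induces, had 488.76, 485.63 and 503.85 FPKM untreated and 307.56, 334.74 and 257.05 treated. The groups were far apart, and Rcan1 fell by 0.72 (95% interval −0.96 to −0.49, adjusted p = 0.0324 in limma), with WKY at 261 ± 32.2 FPKM. Quantile normalization took its call away (adjusted p = 0.0611 in limma; 0.0156 to 0.14 over all alternatives). Cdkn1a (114851), the cell cycle inhibitor p21 that p53 and glucocorticoids induce, had 54.58, 63.26 and 43.36 FPKM untreated and 26.86, 23.34 and 23.35 treated. It fell by 1.09 (95% interval −1.39 to −0.79, adjusted p = 0.0162 in limma) and had 29.3 ± 3.69 FPKM in WKY. It was the called member of both the p53 list (1 of 31) and the glucocorticoid list (1 of 16), whose medians were 0.00 and −0.12.

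Enah (360891), which helps actin filaments grow, fell from 64.81, 80.00 and 88.11 FPKM to 45.97, 50.29 and 45.70, by 0.69 (adjusted p = 0.044 in limma). Ypel2 (360590), of the little-studied yippee-like family, fell from 20.66, 23.31 and 24.22 FPKM to 11.72, 12.22 and 12.53, by 0.85 (95% interval −1.03 to −0.67, adjusted p = 0.00341 in limma). With Arntl it was the gene among those that fell that all 18 alternatives called. No treated value of Enah or Ypel2 reached the lowest untreated one.

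Smaller changes were seen in Ppp1r3c (309513), which targets protein phosphatase 1 to glycogen. It fell from 98.78, 96.84 and 98.43 FPKM to 71.27, 70.46 and 75.90, by 0.43 (adjusted p = 0.0324 in limma). Asph (312981), whose products include aspartyl hydroxylase and junctin, a protein of the calcium release complex, fell from 100 ± 6.18 to 78.8 ± 0.533 FPKM, by 0.34 (adjusted p = 0.0324 in limma). Uck2 (304944), which salvages uridine and cytidine, fell from 9.84 ± 0.605 to 6.51 ± 0.519 FPKM, by 0.53 (adjusted p = 0.0324 in limma). The locus LOC100909761, also without an entry in the table of names, fell by 1.03 (adjusted p = 0.0324 in limma). In WKY, Ppp1r3c was at 72.1 ± 6.08 FPKM, Asph at 71.9 ± 1.22 and Uck2 at 6.38 ± 0.337, close to the treated levels. For these and all other called genes set beside WKY, both differences share the untreated SHR libraries and are not independent.

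**Figure D3:**
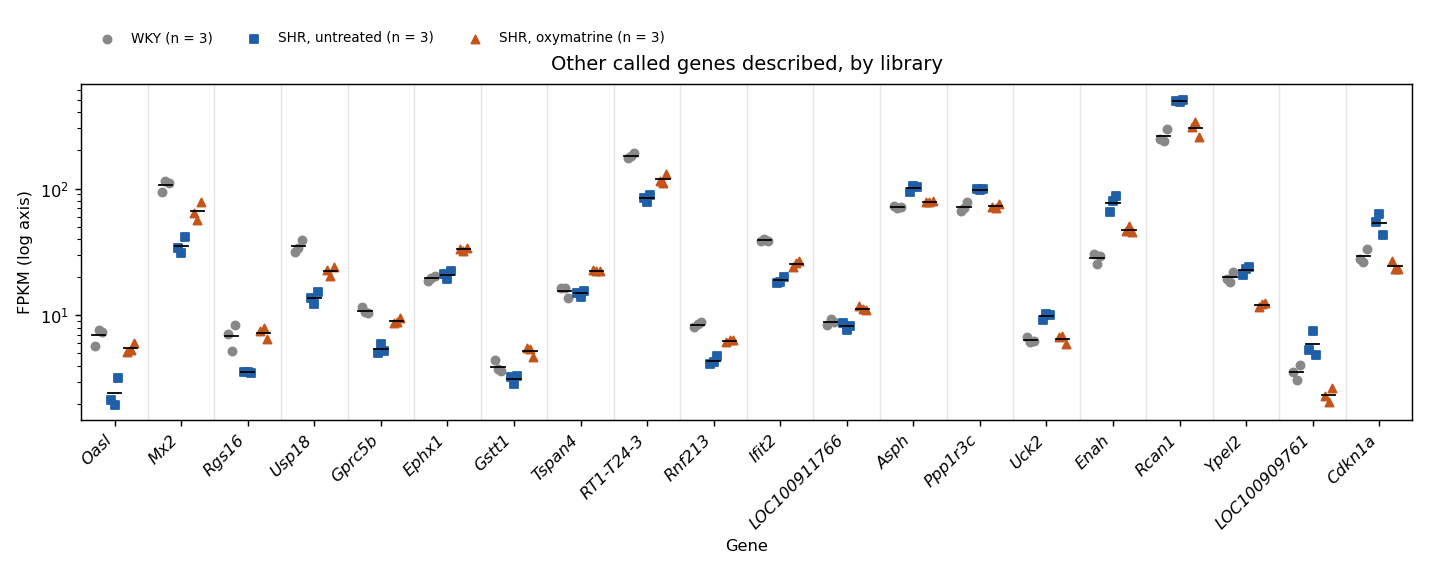
FPKM of the called genes described here that the plot of clock genes does not hold (log axis), in each WKY (grey), untreated SHR (blue) and oxymatrine-treated SHR (orange) library, 3 a group, with a line at the mean. Treated and untreated SHR do not overlap for any gene shown, and WKY is on the treated side of untreated SHR for genes such as Mx2 and Rcan1 but not for Ephx1.

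The study's title names myocardial hypertrophy, and genes of the stressed ventricle were compared for that reason. Of 20 genes induced in hypertrophied heart muscle 1 fell, which was Rcan1, and none rose. Their median log2 change was −0.17, and 16 of the 20 estimates were below 0, as were 4426 of all 12451. Treated values were all below untreated ones for 5 of the 20, Rcan1, Tnfrsf12a, Actc1, Cryab and Hspb7 (3.99% of all genes), and above for Nes. With median-of-ratios scaling 7 of the 20 were all lower, where 8.57% of all genes were. Tnfrsf12a, the receptor for TWEAK, had 27.06, 31.97 and 35.40 FPKM untreated and 18.32, 21.96 and 15.88 treated (log2 change −0.72, adjusted p = 0.0693 in limma). Median-of-ratios scaling and quantile normalization were among the 3 alternatives that called it.

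The classical markers of the hypertrophied ventricle did not pass. Nppa, the gene for atrial natriuretic peptide, had 969.79, 3754.28 and 4450.12 FPKM untreated and 967.22, 1917.40 and 1191.74 treated. One untreated library was as low as the treated ones, and the log2 change of −0.96 had a 95% interval of −2.15 to 0.23. Summed over 8 atrial markers, the level was 1459, 4291 and 4948 FPKM in the untreated and 1394, 2336 and 1602 in the treated libraries. Nppa is among the 8 and made up most of that sum in every library. The sum thus largely repeats Nppa and is no separate measure of atrial tissue, whose part in the result was not tested. Nppb, the gene for brain natriuretic peptide, had 558.09, 656.63 and 690.99 FPKM untreated and 334.01, 579.57 and 470.87 treated (log2 change −0.49, adjusted p = 0.324 in limma). Acta1, the skeletal actin of the stressed heart, had 1622.77, 1362.92 and 2754.82 FPKM against 1338.98, 1710.92 and 1903.98, with overlapping groups. The myosin heavy chains Myh6 and Myh7 had log2 changes of 0.04 and −0.13.

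Of 22 genes of the adult contractile apparatus and calcium handling limma called none, with 1 below an unadjusted p of 0.05, and all changes lay between −0.17 and 0.14. The cardiac calcium pump Atp2a2 had 2018 ± 199 FPKM untreated and 2051 ± 141 treated, and the calcium release channel Ryr2 97.2 ± 10.9 and 91.8 ± 2.20. Their 95% intervals, −0.15 to 0.20 and −0.24 to 0.09, both spanned 0. The 8 cardiomyocyte markers summed to 43866 to 46279 FPKM untreated and 40035 to 44672 treated, so the defining transcripts of heart muscle were abundant in every library. The 21 tested heat shock genes were not called by limma, with 5 below an unadjusted p of 0.05. Their median was −0.08, and 6 of the 21 were all lower in treated libraries (3.99% of all genes), or 7 with median-of-ratios scaling (8.57%). Among them were Hsp90aa1 and Dnajb5, which 2 alternatives called, one of them that scaling (adjusted p = 0.0762 in limma as reported, 0.0382 to 0.256 over the alternatives).

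Of 42 tested genes of extracellular matrix and fibrosis limma called none, 3 were below an unadjusted p of 0.05, and the median was −0.02, with a range from −0.67 to 1.73. The highest was Spp1, the gene for osteopontin, at 10.95, 3.28 and 33.38 FPKM untreated and 374.77, 49.20 and 2.38 treated. Its treated libraries held both the highest and the lowest value of the 6 (95% interval −1.45 to 4.90). Col1a1 and Col3a1, the main fibrillar collagens, had 51.9 ± 10.2 and 180 ± 46.1 FPKM untreated and 58.1 ± 12.8 and 206 ± 46.9 treated. Postn, made by activated fibroblasts, had 6.57, 5.44 and 14.49 FPKM untreated and 15.93, 22.09 and 8.07 treated, so its groups overlapped. Ctgf, a matricellular target of TGF-beta, had 58.79, 67.40 and 87.10 FPKM untreated and 43.19, 53.34 and 36.15 treated, which did not overlap but did not pass (log2 change −0.67, adjusted p = 0.256 in limma). Tgfb1 had a log2 change of 0.21. Of 26 genes of the TGF-beta pathway limma called none, with 7 below an unadjusted p of 0.05, as were 1512 of all 12451. Of 14 tested renin-angiotensin and endothelin genes limma called none, with 4 below that p. Ace had a change of −0.13, Agtr1a one of 0.19, and Edn1, endothelin 1, was at 1.98 to 3.55 FPKM untreated and 0.88 to 1.72 treated without passing.

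In energy metabolism limma called none of 37 genes of fatty acid uptake and oxidation, 28 of glycolysis, 22 of the citric acid cycle and 34 of the respiratory chain, of which 4, 4, 0 and 0 were below an unadjusted p of 0.05. Their medians were 0.05, −0.03, 0.00 and 0.01. Cd36, the fatty acid transporter, had 193.41, 202.21 and 195.04 FPKM untreated and 166.01, 180.67 and 178.53 treated (log2 change −0.17, adjusted p = 0.362 in limma). In WKY it had 866 FPKM, so treated and untreated SHR shared the low level of their strain. Pdk4, a brake on pyruvate oxidation, had a log2 change of −0.43, and Ucp3, a mitochondrial carrier, one of −0.55, and neither passed. Of 18 tested immediate early genes limma called none, with 5 below an unadjusted p of 0.05, and a median of 0.29. Of the 18, 4 were all higher in treated libraries, among them Junb and Egr1, where 13.2% of all genes were. Of 25 cell division genes none was called by limma and 6 were below an unadjusted p of 0.05 (1512 of all 12451). Of their estimates 24 were above 0 (8025 of all 12451), with a median of 0.21.

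**Figure D4:**
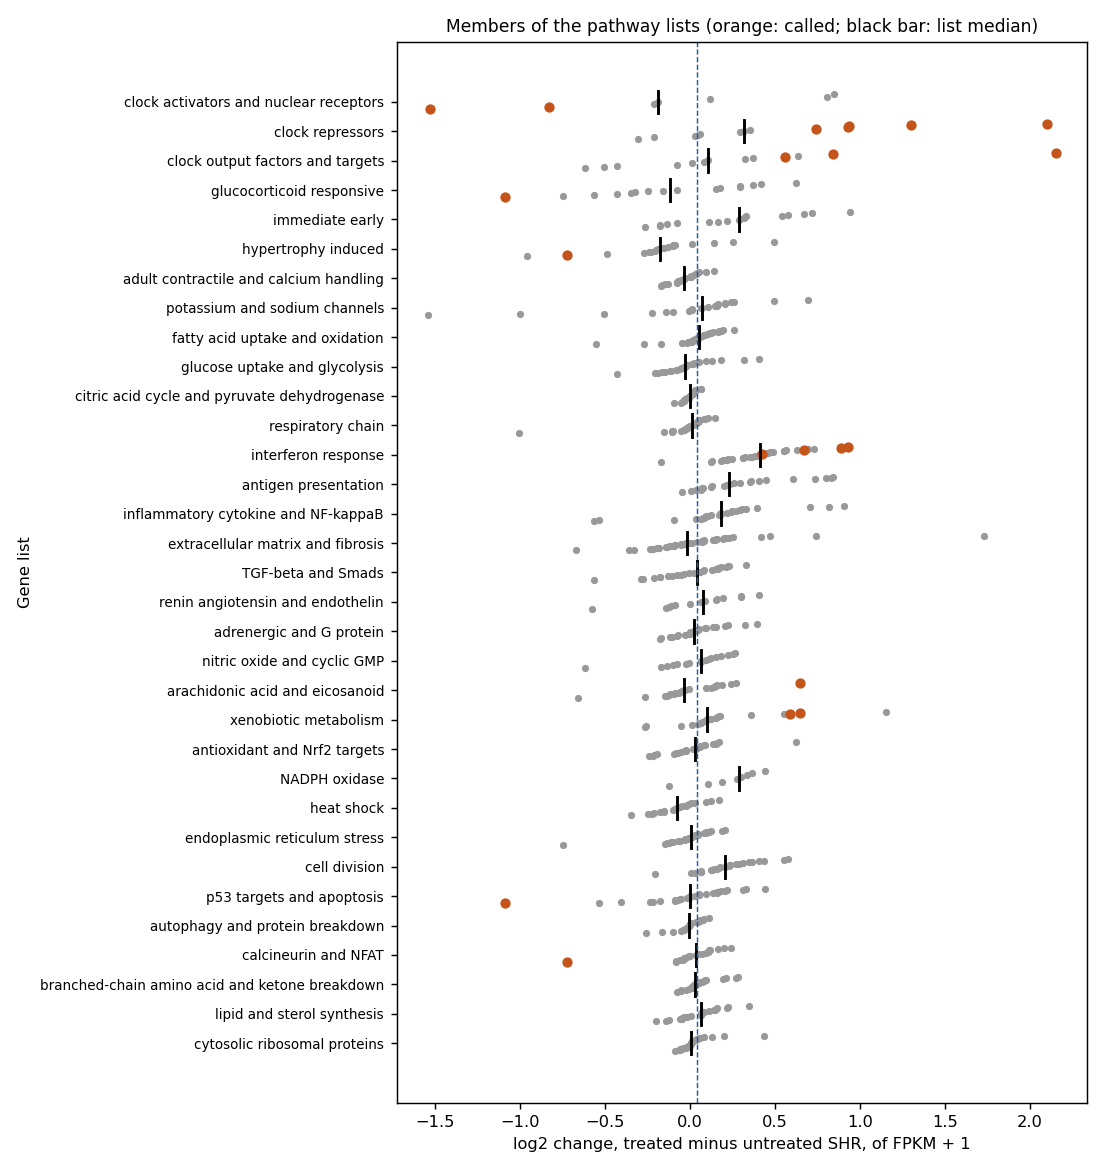
Log2 change with oxymatrine (x axis, treated minus untreated SHR on the log2(FPKM + 1) scale) of the tested members of each pathway list (rows), with called members in colour and the median marked. The interferon response list has its median at 0.41, and the contractile list at −0.03 with a range from −0.17 to 0.14.

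Some genes had larger differences and were not called. The 10 genes with the highest changes among those whose groups did not overlap included Ccl21, a chemokine that lymphatic vessels make, at 26.28, 56.66 and 85.70 FPKM untreated and 177.42, 136.52 and 144.03 treated. Sostdc1, a secreted inhibitor of BMP and WNT signals, was at 0.71, 0.73 and 0.64 FPKM untreated and 2.67, 2.19 and 2.42 treated, which 5 of the alternatives called (adjusted p = 0.0524 in limma as reported, 0.00955 to 0.211 over the alternatives). Egr1, an immediate early factor, was at 5.70, 6.11 and 8.22 FPKM against 10.74, 25.95 and 8.81. Pddc1, Hmgn5b, Vkorc1l1 and Tmem45al were each listed at 0 in at least 1 library, and no fold is given for them. Plekhb1 had a log2 change of 0.96.

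Of 7 tested Schwann cell and neuronal markers 4, among them Sox10 and S100b, were all higher in treated libraries (13.2% of all genes, and with median-of-ratios scaling 4 of 7 against 7.63%). None was called by limma, and 4 were below an unadjusted p of 0.05. The 7 summed to 16.7 to 22.9 FPKM untreated and 26.8 to 33.5 treated, with no overlap.

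The 10 genes with the lowest changes without overlap had no call either. Hcn4, the main pacemaker channel, had 8.06, 4.84 and 2.33 FPKM untreated and 1.13, 1.21 and 0.52 treated (log2 change −1.54, adjusted p = 0.202 in limma). Kcne1, a potassium channel subunit, had 11.42, 14.00 and 6.77 FPKM against 5.29, 4.41 and 4.32 (log2 change −1, adjusted p = 0.188 in limma). Penk, the precursor of enkephalins, had 451.72, 199.51 and 137.34 FPKM against 60.29, 104.51 and 87.89 (log2 change −1.48). In all 3 the untreated libraries spread widely, and that they lay above every treated one follows from how these genes were chosen. S100a8, a protein of neutrophils, had 9.31, 13.06 and 4.49 FPKM against 2.16, 4.42 and 3.87, and its partner S100a9, at 20.17, 25.65 and 6.49 against 4.86, 8.67 and 6.80, overlapped. Rec114, Gzmc, Casp6, Pfn2, Cox7a2l2 and Hist2h2aa3 made up the rest, with log2 changes from −1.45 to −1.03. Gzmc and Casp6 were listed at 0 in some treated libraries. Cox7a2l2 and Hist2h2aa3 have near-identical relatives, so their single-copy levels are uncertain.

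The calls differed in how often they held. Under 18 alternative settings Dbp, Per3, Ephx1, Ypel2 and Arntl were called every time, and Ciart in all 17 in which it was tested. Gprc5b and Tef were called in 16 and Bhlhe41 in 15, while Gstt1, LOC100911766, Oasl and Rnf213 were called in 4 or fewer. Enah was called in 5, and Asph, Ifit2, Mx2, RT1-T24-3, Rgs16 and Usp18 in 6 each. Npas2 was called in 9. The split of the calls also moved with scaling. It was 63.3% higher as reported, 43.5% (10 higher, 13 lower) with median-of-ratios scaling and 52.4% (11 higher, 10 lower) with quantile normalization.

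**Figure D5:**
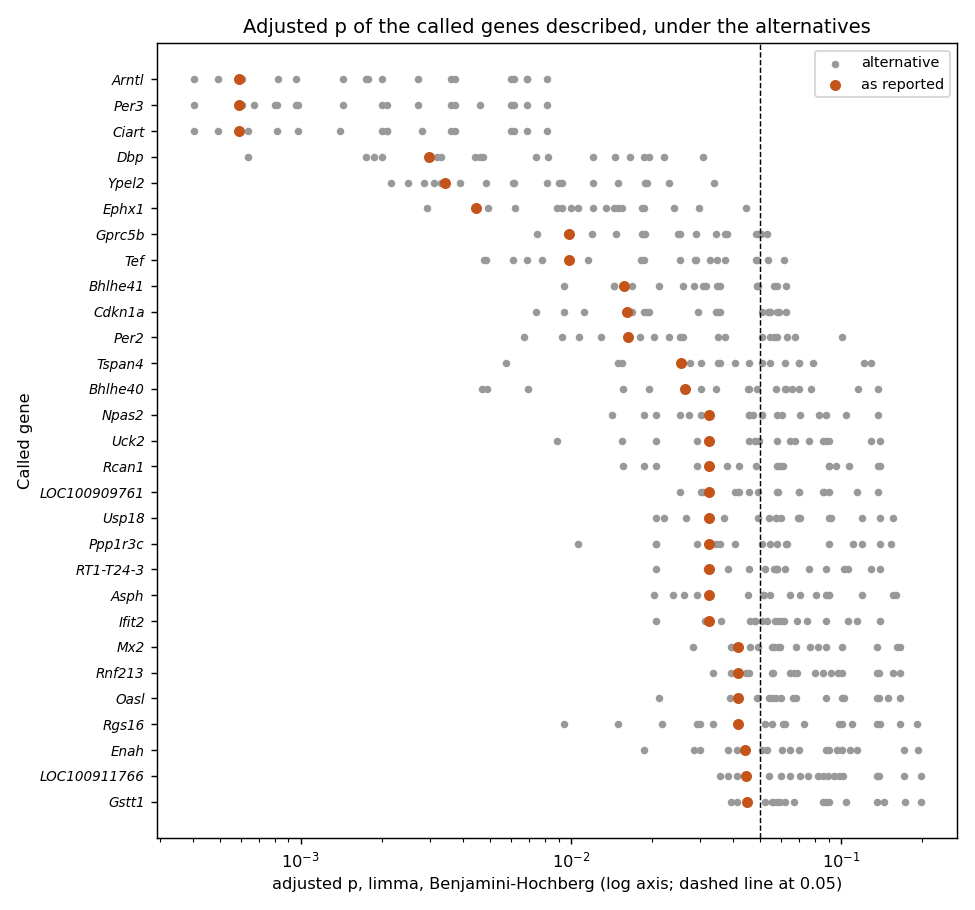
Adjusted p in limma of the called genes described here (x axis, log scale) as reported (orange) and under each alternative setting (grey), with a dashed line at 0.05. The 6 genes at the top stay left of the line throughout, and the others cross it under at least 1 alternative.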

How the data were processed

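Per the labels' protocols, libraries were built from total RNA (Trizol extraction) with a KAPA RNA HyperPrep kit and read on a BGISEQ-500. Bowtie2, RSEM 1.3.1, DESeq2 1.4.5 and the build Rnor_6.0 are named in the submitters' processing notes, which give no order or settings. The values are FPKM by gene and sample as deposited, per the file headers, and 4 columns with the authors' own comparisons were left unused. Of 22864 gene rows, 3570 had no values. A RefSeq table (GRCr8) that held 20690 of the Gene IDs served to restore 27 symbols that had become dates.

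No count model was run, since the table has no counts. To look for steps of whole reads, 299 ratios between low values of 124 genes were taken: 31.8% came within 0.1 of a whole number (20% by even spacing). Whole reads were therefore not recovered, depth is unknown and counting intervals are not given. RSEM divides reads between similar genes.

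Tests used limma 3.58.1 (R 4.3.3) on log2(FPKM + 1), a scale that understates changes of low genes, for genes averaging an FPKM of 1 or more. All 3 groups entered 1 fit (6 residual degrees of freedom, variance trend), and two-sided p-values were Benjamini-Hochberg adjusted over 12451 genes at a threshold of 0.05. Log2 changes and intervals come from that fit, and folds are ratios of mean FPKM. The fit was tested on simulated data in which 200 of 12451 genes differed, with normal noise drawn independently for each gene. Changes were set on the log2(FPKM + 1) scale, so for low genes they stand for larger folds of FPKM. The fit recovered 65.7% of genes changed 1.5-fold on that scale (44 of 67). It recovered 92.5% of those changed 2-fold (62 of 67) and 98.5% of those changed 4-fold (65 of 66). Beside these recovered genes it made 14 false calls. Whether these shares hold for the measured libraries, where 30 genes were called, was not tested. There, 28 genes had a log2 change of 1 or more upwards and 27 one of that size downwards. Of the 30 called genes 7 reached that size.

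Named genes were all called genes, the 10 highest and 10 lowest uncalled changes without overlap (unnamed loci left out), from each described list up to 4 genes of smallest p, all clock genes, and 18 heart genes given whatever their result. Cryab and Spp1 were named after their values were seen, and a few genes named by this rule are not reported here. The members and lists were chosen with earlier results of these data known. As alternatives the pseudocount was set to 0.1, the filter was dropped or raised to a mean FPKM of 5, and the rest were scaling by median of ratios or by quantiles, a fit of only the SHR groups, sample weights, a fit without the variance trend, a replicate block, and leaving out each library. Matplotlib drew the figures.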

Additional observations from a re-analysis of the deposited data

How the results depend on the processing

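Against 30 calls as reported (19 higher, 11 lower), 12 genes were called with no filter on low values (10 higher, 2 lower), 19 in a fit of only the treated and untreated SHR libraries (5 lower) and 17 with no variance trend (11 higher, 6 lower). Calls that were higher came to 10 with median-of-ratios scaling and 11 with quantile normalization, and the former scaling turned 1645 genes separated upwards and 497 downwards into 950 and 1067. With each library left out in turn the count ran from 6 to 33, with 4 to 24 higher and 2 to 10 lower. It fell by more than 1.5 times without WKY replicate 1 (13), without SHR replicates 1 (19), 2 (7) or 3 (18), and without SHR_OMT replicates 1 (6), 2 (16) or 3 (13). Without WKY replicate 3, in contrast, 24 genes were called higher and 9 lower. All these fits have fewer libraries, and the cause of the differing counts was not tested.

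The replicate numbers did not pair the samples: deviations from the group means of same-numbered libraries correlated at 0.00, −0.03 and 0.02. With the replicate block 14 genes were called, 11 higher and 3 lower.

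No called gene changed direction. Among uncalled heart genes the sign turned with median-of-ratios scaling for Myh6 (−0.01) and Atp2a2 (−0.02). Over the fits that leave out a library, log2 changes ran from −0.37 to 0.14 for Acta1, −0.07 to 0.11 for Myh6, −0.05 to 0.10 for Atp2a2, −0.15 to 0.01 for Ryr2, −0.01 to 0.28 for Col1a1, −0.02 to 0.35 for Col3a1 and −0.31 to 0.01 for Ace. With 3 libraries a group and unknown depth, small changes of low genes could not be resolved. Larger changes of abundant genes that varied among the libraries, such as Nppa and Penk, were not resolved either.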
